A study of Mus musculus with 3 samples.

Results

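Cell division requires a set of transcripts that a resting cell makes little of. Across the cell classes in preparations of the mouse aortic arch intima, 39 of these genes were followed. The genes were taken by symbol, and all 39 were found among the 32285 genes of each library. They comprised 13 S-phase genes, 23 genes of the G2 phase and mitosis (G2/M), and 3 genes of chromatin and microtubules that dividing cells raise but other cells also make (Hmgb2, Stmn1 and H2afz). Single-cell RNA was measured with the 10x 3' v3 droplet kit in cells of the intima, the innermost layer, along the lesser curvature. Animals were C57BL/6J, aged 12 to 13 weeks, with males and females mixed, and 5 to 10 of them were pooled for each library. Before a brief digestion with collagenase D and DNase I, the vessels of all groups were perfused with actinomycin D, a blocker of transcription. Of the 3 libraries, control 1 and control 2 came from untreated animals, and the third from animals given 30 µg of lipopolysaccharide (LPS), a bacterial cell wall component, intravenously 18 h before harvest. The numbers of the controls only name them. The labels do not say whether the libraries were separate experiments, so p-values measure the spread between these libraries, which may be technical.

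A cell that commits to division first makes deoxynucleotides and loads, fires and clamps its replication machinery in S phase. Cyclin A, cyclin B and Cdk1 then drive entry into mitosis, kinases and motor proteins build the spindle and attach chromosomes to it, and the anaphase-promoting complex ends mitosis by destroying cyclins. Transcription follows this order: E2F factors serve the S-phase genes, and a MuvB complex with B-Myb and FoxM1 serves the G2/M genes. Immature T cells of the thymus divide in bursts between rearrangements of their receptor genes, whereas cells of the adult artery wall divide rarely.

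Promoters are shown for the S-phase and G2/M genes with the highest mean T-lineage level that hold a motif of their phase, since the genes of each phase are compared as groups in what follows. The motif set for S phase was TTTNNCGC, a relaxed form of the E2F element. For G2/M it was CCAAT, the element of the factor NF-Y, together with TTTGAA, the cell cycle gene homology region to which MuvB binds. Each was searched on both strands in the 250 bases before the start site in RefSeq's promoters of build GRCm38.p6, and capitals mark TTTNNCGC in Mcm7 and Mcm6, and CCAAT and TTTGAA in Top2a and Mki67. Overlapping matches run together. Mcm7 and Mcm6 encode subunits of the replicative helicase. Their windows are chr5:138171884-138172133 and chr1:128359706-128359955, and those of Top2a and Mki67, a topoisomerase and a coat protein of mitotic chromosomes, are chr11:99024190-99024439 and chr7:135716380-135716629. All 4 are on the minus strand and are printed 5′ to 3′. Of the 2 Mcm7 promoters in the set, only the 1 printed here held the motif. Its window lies inside the span that GENCODE M21 gives the gene, chr5:138164583-138172422.
Mcm7: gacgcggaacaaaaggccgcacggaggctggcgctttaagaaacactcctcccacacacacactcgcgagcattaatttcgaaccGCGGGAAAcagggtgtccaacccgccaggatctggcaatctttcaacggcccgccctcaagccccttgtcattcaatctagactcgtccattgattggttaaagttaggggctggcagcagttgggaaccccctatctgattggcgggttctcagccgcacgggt
Mcm6: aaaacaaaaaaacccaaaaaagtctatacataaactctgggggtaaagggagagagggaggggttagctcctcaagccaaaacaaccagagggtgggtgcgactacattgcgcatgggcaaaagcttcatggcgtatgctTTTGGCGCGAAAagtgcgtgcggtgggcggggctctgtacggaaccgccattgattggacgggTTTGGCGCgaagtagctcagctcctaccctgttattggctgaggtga
Top2a: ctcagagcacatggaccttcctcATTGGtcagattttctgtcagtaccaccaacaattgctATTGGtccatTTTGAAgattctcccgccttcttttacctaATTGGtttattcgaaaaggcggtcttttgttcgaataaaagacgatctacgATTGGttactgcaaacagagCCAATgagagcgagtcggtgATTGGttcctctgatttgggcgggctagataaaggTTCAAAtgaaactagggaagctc
Mki67: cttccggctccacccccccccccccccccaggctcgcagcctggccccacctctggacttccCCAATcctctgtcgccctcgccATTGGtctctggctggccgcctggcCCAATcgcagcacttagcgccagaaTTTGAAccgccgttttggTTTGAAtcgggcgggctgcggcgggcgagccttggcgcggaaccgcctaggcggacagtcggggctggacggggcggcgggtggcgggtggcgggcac

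The table of promoters matched 32 of the 39 genes with 33 promoters, H2afz by its newer symbol H2az1; Mcm4, Ccna2, Aurkb, Pbk, Kif20a, Tpx2 and Stmn1 had no entry. CCAAT was in 29 of the 33 promoters (87.9%), against 33.85% of all 32851 promoters of the same length. The pair of CCAAT and TTTGAA was in 7 of 18 promoters of G2/M genes (38.9%) and in 2 of 13 of S-phase genes (15.4%), against 5.55% of all promoters. TTTNNCGC was in 3 of 13 promoters of S-phase genes (23.1%) and in 1 of 18 of G2/M genes (5.56%), against 4.28% of all. Top2a held 6 CCAAT and 2 TTTGAA matches, and Mki67 held 3 and 2. A match says only that these letters are in the window.

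Classes of cells were set by marker counts that use none of the 39 genes. Each class had 12 markers, and a barcode joined a class when it showed at least 4 of them and at least 2 times as many as of any other class. T-lineage cells numbered 158, 944 and 71 in control 1, control 2 and the LPS library, phagocytes 51, 24 and 92, and wall cells (endothelial, fibroblast and mural cells together) 79, 157 and 203. Levels are given as CPM: the UMIs (single captured RNA molecules) of a gene scaled to 1000000 UMIs of the class in that library, after haemoglobin, mitochondrial, Gm42418 and AY036118 UMIs were set aside. The 12 markers of T cells summed to between 9682 and 17824 CPM in T-lineage cells and to at most 80.7 in phagocytes and 201 in wall cells. These markers set the gate, so this gap follows from the rule and is no check of the classes. The libraries held 1269, 4813 and 6000 barcodes with 4940996, 20069697 and 21864072 UMIs, and pairs of them shared 2, 1 and 6 cell barcodes. In the LPS library 3659 barcodes had at least 40% of their UMIs in Gm42418, and haemoglobin-rich barcodes numbered 4, 316 and 693. Both kinds were kept out of the classes. Control 2 stood apart in that its T-lineage cells carried 3613 CPM of mural markers, against 259 in control 1 and 574 in the LPS library. There, 744 barcodes with T-cell markers failed the 2-fold rule and stayed ungated, and 245 of the 944 gated T-lineage cells lay at the edge of the gate, against 3 and 5 in the other libraries. Ungated barcodes of control 1, control 2 and the LPS library held 156, 12387 and 559 G2/M UMIs, against 3675, 14269 and 738 in gated T-lineage cells. Their S-phase UMIs numbered 136, 8320 and 515, against 2003, 8614 and 203. In the LPS library 1 ungated barcode held 351 of the G2/M UMIs. T-lineage levels leave all of these out. No doublet caller was used. Fewer dividing cells in a class and less RNA per dividing cell cannot be told apart in summed levels.

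T-lineage cells carried the highest summed levels in the controls. The 23 G2/M genes summed to 3935 CPM in control 1 (95% Poisson interval 3808 to 4064), 3083 in control 2 (3033 to 3134) and 1859 in the LPS library (1728 to 1998). In phagocytes the same sums were 155 (93.4 to 242), 1818 (1616 to 2039) and 303 (265 to 344). Wall cells held 35.6 (14.3 to 73.4), 130 (97.9 to 168) and 23.7 (16.4 to 33.2). Intervals cover counting error only. So T-lineage cells were above phagocytes in each library, and phagocytes above wall cells, with the smallest gap between T-lineage cells and phagocytes in control 2. The 13 S-phase genes ran differently: they summed to 2145, 1861 and 511 CPM in T-lineage cells, 375, 496 and 695 in phagocytes, and 209, 308 and 183 in wall cells. In the LPS library the S-phase sum of phagocytes (638 to 756) thus lay above that of T-lineage cells (444 to 587), but this order rested on 1 phagocyte with 300 of the 542 UMIs: without it the sum was 348, below T-lineage cells.

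**Figure D1:**
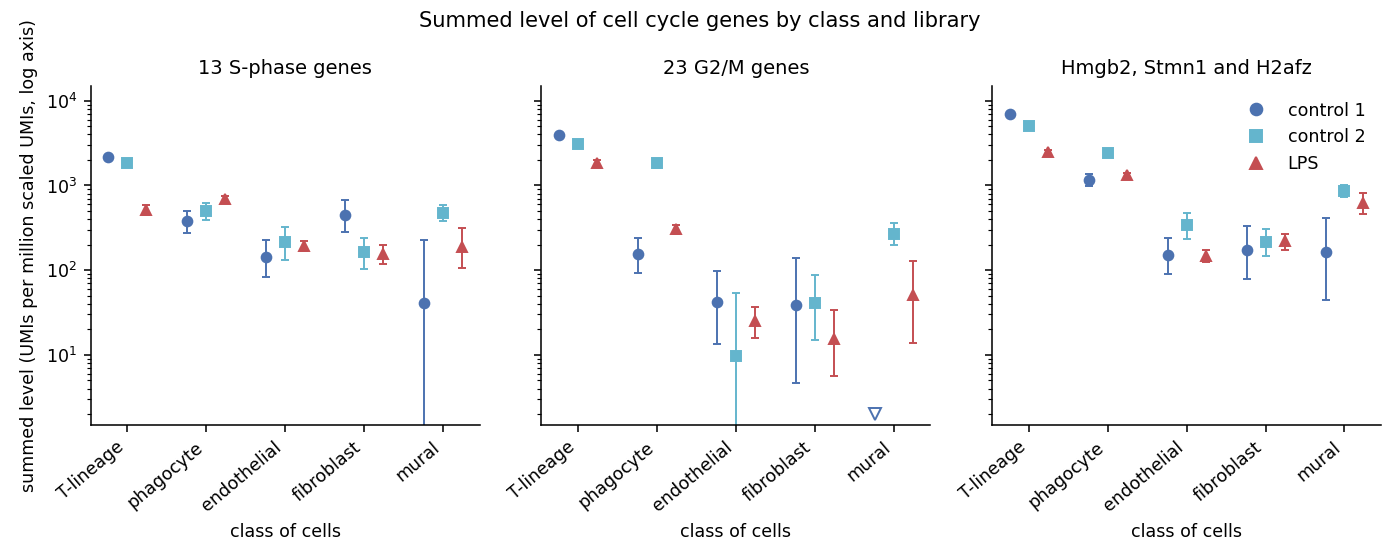
Summed levels of the S-phase, G2/M and broad genes (y, CPM on a log axis) in 5 classes (x), with 1 point per library, 95% Poisson bars and an open triangle for 0 UMIs. T-lineage cells are highest for G2/M genes in every library, and for those genes the wall classes lie at or under 270 CPM.

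Nucleotide synthesis genes were led by Rrm2, the regulated subunit of ribonucleotide reductase. In T-lineage cells Rrm2 stood at 196, 215 and 35.3 CPM in control 1, control 2 and the LPS library, in phagocytes at 0, 6.21 and 42.3, and in wall cells at 0, 18.5 and 0. Tyms, thymidylate synthase, stood at 149, 119 and 22.7 CPM in T-lineage cells and between 12.6 and 30.8 in the other classes. Rrm1, the large reductase subunit, stood at 105, 109 and 30.2 in T-lineage cells, 32.6, 43.4 and 47.5 in phagocytes and 30.5, 27.8 and 14.0 in wall cells. Tk1, thymidine kinase, stood at 53.5, 36.5 and 5.04 in T-lineage cells. For Rrm2, Tyms and Rrm1 the LPS T-lineage level fell inside or under the range of the phagocytes, while both control T-lineage levels were above every other sum.

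Among the replication genes, Pclaf, a partner of the sliding clamp PCNA, was at 538.5, 390.5 and 45.3 CPM in T-lineage cells. Its phagocyte levels were 73.4, 68.3 and 88.5 and its wall levels 20.4, 37.0 and 0.698. Pcna itself was at 339, 306 and 95.7 CPM in T-lineage cells, 122, 112 and 133 in phagocytes and 30.5, 67.1 and 77.5 in wall cells, so it was present in each class. Mcm7 was at 144, 153 and 106 in T-lineage cells, 16.3, 24.8 and 66.7 in phagocytes and 20.4, 27.8 and 8.38 in wall cells, and its T-lineage levels overlapped with no other class. The other replication genes, Mcm2 to Mcm6 and Asf1b, a histone chaperone, ran from 55.3 to 163 CPM in the T-lineage cells of the controls and from 2.52 to 45.3 in those of the LPS library.

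The mitotic entry and exit genes were close to absent from wall cells. Ube2c, the ubiquitin-conjugating enzyme of the anaphase-promoting complex, was at 377, 330.4 and 118 CPM in T-lineage cells, 16.3, 230 and 2.57 in phagocytes and 5.09, 4.63 and 0 in wall cells. Ccnb2, cyclin B2, was at 144, 118 and 111 in T-lineage cells, 16.3, 217 and 16.7 in phagocytes and 0, 4.63 and 0 in wall cells. Cdk1, the mitotic kinase that cyclin B activates, was at 123, 131 and 22.7 in T-lineage cells, 0, 31.0 and 18.0 in phagocytes and 0, 11.6 and 0 in wall cells. Ccna2, Ccnb1 (cyclins A2 and B1) and Cdc20, an activator of the anaphase-promoting complex, ran from 84.6 to 116 CPM in the T-lineage cells of the controls and from 17.6 to 55.4 in those of the LPS library. In the phagocytes of control 2, Ube2c was thus within the range of the T-lineage levels and Ccnb2 above all of them, which the other phagocyte sums were not.

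Of the mitotic kinases and their partners, Birc5 (survivin, of the chromosomal passenger complex) was at 294, 214 and 121 CPM in T-lineage cells, 0, 180.0 and 35.9 in phagocytes and 0, 20.8 and 4.89 in wall cells. Bub1b, a spindle checkpoint kinase, was at 63.2, 53.4 and 32.8 in T-lineage cells, 0, 43.4 and 8.98 in phagocytes and 0, 6.94 and 0.698 in wall cells. Pbk, a mitotic serine/threonine kinase, was at 76.0, 62.5 and 2.52 in T-lineage cells, 0, 0 and 5.13 in phagocytes and 0 in all wall sums. The kinases Aurka, Aurkb, Plk1 and Bub1 ran from 29.2 to 81.4 CPM in the T-lineage cells of the controls and from 5.04 to 15.1 in those of the LPS library. Bub1 was also at 0 in all wall sums, where the 3 UMIs that a count of 0 allows come to 15.3, 6.94 and 2.10 CPM.

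Of the spindle and centromere genes, Cenpf, a kinetochore protein, was at 271, 164 and 131 CPM in T-lineage cells, 8.16, 68.3 and 0 in phagocytes and 0, 2.31 and 0.698 in wall cells. Cenpa, the centromeric histone, was at 171, 183 and 171 in T-lineage cells, 8.16, 223 and 20.5 in phagocytes and 10.2, 6.94 and 3.49 in wall cells. Nusap1, which binds spindle microtubules, was at 249.5, 150.0 and 47.9 in T-lineage cells, 24.5, 93.1 and 5.13 in phagocytes and 10.2, 2.31 and 1.40 in wall cells. Kif11, Kif23, Kif20a, Tpx2 and Cenpe, motors and a spindle assembly factor, ran from 22.5 to 170 CPM in the T-lineage cells of the controls and from 15.1 to 144 in those of the LPS library. Of Cenpf, Cenpa and Nusap1, Cenpa was the gene whose phagocyte level in 1 library exceeded all T-lineage levels.

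Top2a, topoisomerase II alpha, was at 724, 507 and 237 CPM in T-lineage cells, 24.5, 68.3 and 55.2 in phagocytes and 10.2, 11.6 and 1.40 in wall cells. Mki67, the source of the Ki-67 antigen, was at 394, 311 and 348 in T-lineage cells, 0, 68.3 and 62.9 in phagocytes and 0, 13.9 and 2.10 in wall cells. Neither gene's T-lineage levels overlapped with those of the other classes. The broad genes had UMIs in T-lineage, phagocyte and wall cells of each library: Hmgb2, a chromatin protein, was at 3327, 2151 and 1197 CPM in T-lineage cells, 286, 664 and 471 in phagocytes and 30.5, 139 and 77.5 in wall cells. Stmn1, a microtubule destabilizer, was at 1379, 1088 and 474 in T-lineage cells, 97.9, 478 and 52.6 in phagocytes and 10.2, 78.7 and 4.19 in wall cells. H2afz, a histone H2A variant, was at 2344, 1834 and 816 in T-lineage cells and 775, 1247 and 790.1 in phagocytes, which overlapped, and at 117, 303 and 111 in wall cells.

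**Figure D2:**
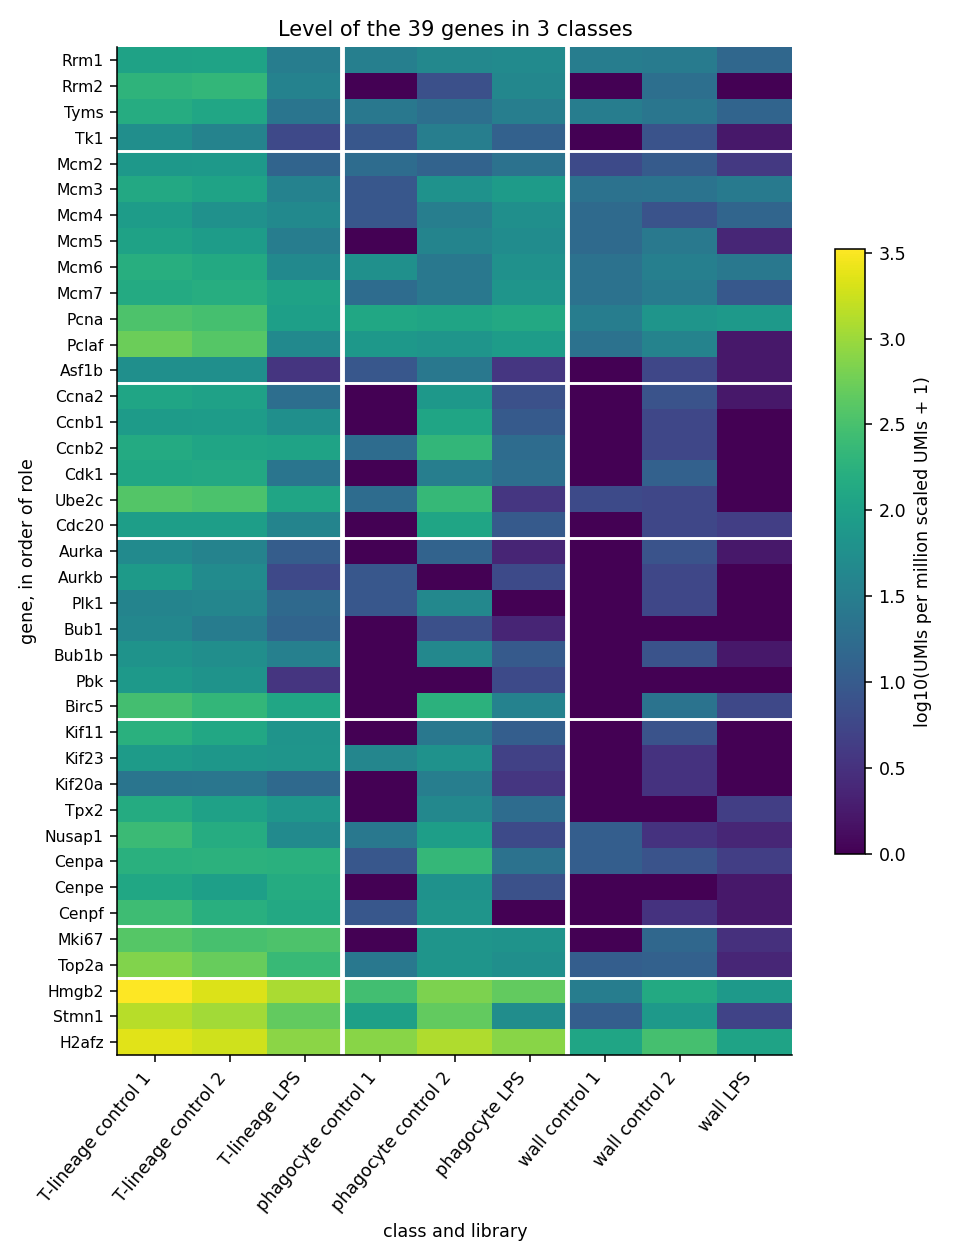
Level of each of the 39 genes (rows, in order of role) as log10 of CPM plus 1 in T-lineage, phagocyte and wall cells of each library (columns). White lines part roles and classes; the G2/M genes are dark in wall cells, and in phagocytes they are brightest in control 2.

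Differences between classes were tested with edgeR's quasi-likelihood test on the 9 sums of library and class, with library as a block, and p-values adjusted over all 7771 genes tested. T-lineage cells had higher levels than phagocytes in 10 of the 33 members that passed the filter on low counts, and lower levels in 0, where 9.63% of all genes tested were higher and 12.3% lower. The 10 were Ube2c, Kif11, Tpx2, Nusap1, Cenpe, Cenpf, Mki67, Top2a, Hmgb2 and Stmn1, that is 8 of 18 tested G2/M genes and 2 of 3 broad genes. Top2a was higher by 2.72 (log2, SE 0.531, adjusted p = 0.00340), Mki67 by 2.71 (SE 0.675, adjusted p = 0.0136) and Cenpf by 3.38 (SE 0.853, adjusted p = 0.0148). Of the 12 tested S-phase genes 0 passed edgeR's test at an adjusted p under 0.05 and 1 had an unadjusted p under 0.05, and DESeq2 also called 0. The median log2 difference was 0.79 for the tested S-phase genes and 1.61 for the G2/M genes, against 0.10 for all genes tested. The filter keeps a gene that is high in T-lineage cells alone, so these medians describe the genes that passed it. Without the filter 20 of 39 were called.

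How many members were called depended on single libraries and cells. Leaving out control 1, control 2 or the LPS library left 2, 14 and 12 calls. The 12 calls in the controls alone included 5 S-phase genes: Rrm2, Tyms, Mcm2, Mcm7 and Pclaf. With a looser gate 4 were called, and without the library block 4.

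The phagocyte sums rested on a handful of cells. In control 2, 1 phagocyte held 258 of the 293 G2/M UMIs of its class (88.0%), spread over 21 of the 23 genes, with 30 UMIs of Ccnb2, 26 of Cenpa and 32 of Ube2c. It had 28230 UMIs, all 12 phagocyte markers, 0 of the 12 T-cell markers and 4 UMIs of 15 T-lineage genes that the gate does not use. In the LPS library 1 phagocyte held 107 G2/M and 300 S-phase UMIs among 86779 UMIs, with 10 phagocyte markers, 0 T-cell markers and 4 UMIs of the same T-lineage genes, and another held 62 and 50. The highest in control 1 held 7 and 14. Without the cell with the most G2/M UMIs of each library, the G2/M sums of phagocytes were 99.8, 261 and 185 CPM. These cells were picked from phagocytes alone for their G2/M UMIs, so fewer of those UMIs in phagocytes follow from the choice, and the next counts are no support. T-lineage cells were then higher than phagocytes in 21 of 28 tested members, including all 10 named above and the S-phase genes Rrm2, Tyms, Mcm7 and Pclaf. Whether such cells are doublets was not tested.

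**Figure D3:**
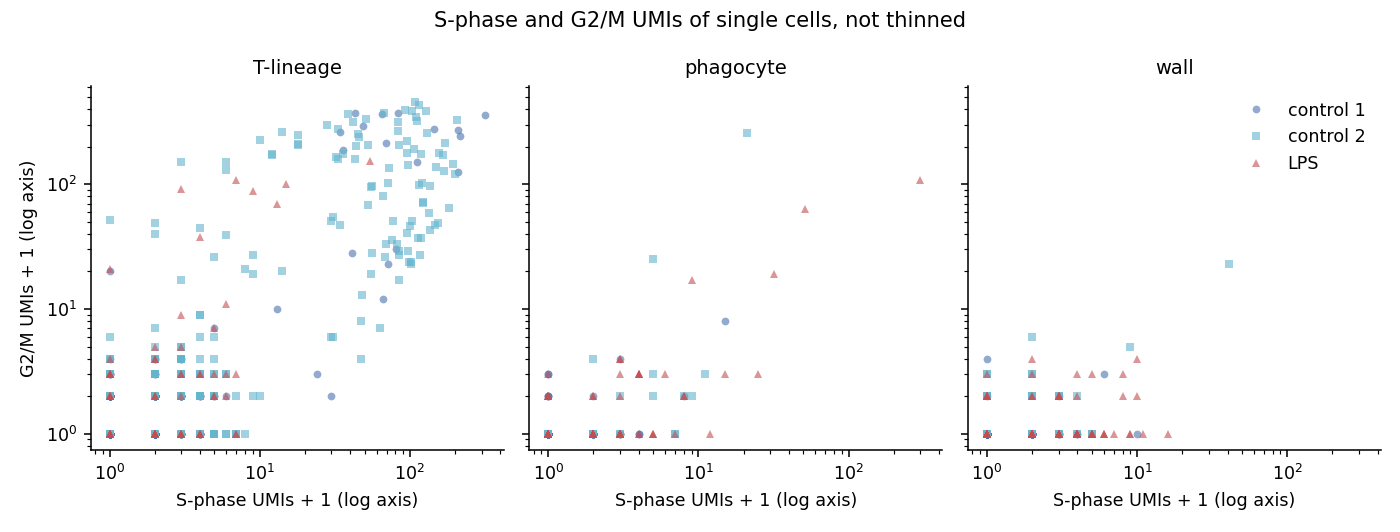
Each point is 1 cell with its S-phase UMIs plus 1 (x) and G2/M UMIs plus 1 (y), both on log axes and not thinned, for T-lineage, phagocyte and wall cells, in colour by library. In T-lineage cells of the controls a cloud of cells is high in both, and single phagocytes stand above their class.

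Against wall cells, all 33 tested members were higher in T-lineage cells, and without the filter all 39 were, where 14.9% of the 7771 genes tested were higher and 22.0% lower. The smallest difference was that of Rrm1 at 1.77 (log2, SE 0.456, adjusted p = 0.00960) and the largest that of Cenpe, a kinetochore motor, at 7.63 (SE 1.08, adjusted p = 0.000333). The median difference was 2.66 for tested S-phase genes and 5.58 for G2/M genes, against 0.01 for all genes tested. Cenpe had 1 UMI in wall cells, in fibroblasts of the LPS library, so the size of its difference rests on counts near 0. Of the 23 G2/M genes, 19, 4 and 11 had 0 UMIs in wall cells of control 1, control 2 and the LPS library. Their median difference has the same limit. Leaving out 1 library left 27 to 37 calls. As a measure of T-lineage RNA outside T-lineage cells, the 15 T-lineage genes outside the gate stood in wall cells at 0.593%, 1.22% and 1.03% of their T-lineage level. The gate leaves out barcodes with many T-cell markers, so a low level of these genes can follow from it in wall cells. The G2/M genes stood there at 0.905%, 4.20% and 1.28% of theirs, and the S-phase genes at 9.73%, 16.5% and 35.8%. The S-phase shares were above those of the T-lineage genes in each library. They were highest in the LPS library, where the S-phase sums of T-lineage and wall cells were both lowest. The G2/M share of control 1 rests on 7 UMIs. Whether wall UMIs of these genes came from T-lineage cells was not tested. In control 2, 22 of the 56 G2/M UMIs of wall cells lay in 1 cell that also had 3 T-cell markers and 15 T-lineage UMIs.

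Within the wall, G2/M genes summed to 41.6, 9.68 and 24.9 CPM in endothelial cells, 38.6, 40.8 and 15.4 in fibroblasts and 0, 270 and 50.5 in mural cells, from 0 to 49 UMIs per sum. S-phase genes summed to 142, 213 and 194 in endothelial cells, 444, 163 and 154.5 in fibroblasts and 40.7, 479 and 189 in mural cells. The 3 classes overlapped.

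Phagocytes had higher levels than wall cells in 20 of 33 tested members and lower in 0, where 10.7% of genes tested were higher and 13.8% lower. These were 14 G2/M genes, all 3 broad genes and the S-phase genes Tk1, Mcm4 and Pclaf. Ccnb2 was higher by 5.74 (log2, SE 1.13, adjusted p = 0.00352) and H2afz by 2.72 (SE 0.453, adjusted p = 0.00131). Without the top phagocyte of each library 6 of 28 were called: Ccnb2, Kif23, Cenpa, Mki67, Hmgb2 and H2afz. Those cells were picked for their G2/M UMIs, so fewer G2/M calls and lower G2/M levels without them follow from the choice. Without the block 11 were called, and leaving out control 1, control 2 or the LPS library left 24, 13 and 12. The T-lineage genes outside the gate stood in phagocytes at 0.951%, 1.60% and 0.728% of their T-lineage level, against 3.94%, 59.0% and 16.3% for the G2/M genes and 17.5%, 26.7% and 136% for the S-phase genes. Without the top phagocyte of each library these were 2.54%, 8.46% and 9.96% for the G2/M genes and 12.4%, 24.03% and 67.9% for the S-phase genes. As in wall cells, a low share of the T-lineage genes outside the gate can follow from the gate.

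Shares of cells were compared after each cell was thinned to 500 UMIs, because detection of a UMI depends on depth. At least 2 G2/M UMIs were found in 13 of 158 T-lineage cells of control 1 (8.23%, exact 95% interval 4.45 to 13.7), 81 of 944 of control 2 (8.58%, 6.87 to 10.5) and 9 of 71 of the LPS library (12.7%, 5.96 to 22.7). In phagocytes 1 of 48, 1 of 24 and 1 of 92 cells passed (2.08%, 4.17% and 1.09%), with 3 cells of control 1 too shallow to thin. In wall cells 0 of 67, 2 of 157 and 0 of 196 passed, and the counts of 0 allow shares of up to 4.48% and 1.53%. Endothelial cells had 0 of 27, 0 of 16 and 0 of 105, which allows up to 11.1%, 18.75% and 2.86%. T-lineage cells exceeded phagocytes by 7.38 percentage points (SD 3.75, n = 3) and wall cells by 9.41 (SD 2.87, n = 3), in 3 of 3 libraries each, with an exact two-sided sign-flip permutation p of 0.25, the smallest that 3 libraries allow. Without thinning, the T-lineage shares were 19.6%, 18.75% and 38.0%, those of phagocytes 7.84%, 20.8% and 16.3% and those of wall cells 2.53%, 4.46% and 3.45%. In control 2 the unthinned share of phagocytes was thus above that of T-lineage cells, the reverse of the thinned order. The order also turned in 1 library with at least 1 thinned UMI (mean 6.65 points, lowest -2.16, exact permutation p = 0.5) and with classes from clusters (6.19, lowest -2.99, exact permutation p = 0.5).

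Haemoglobin-rich barcodes give a reading of these genes outside the classes. After thinning, 13 of 314 in control 2 (4.14%) and 42 of 494 in the LPS library (8.50%) held at least 2 G2/M UMIs, with 2 and 199 barcodes too shallow. Ube2c and Nusap1 made up 69.8% of their 149 G2/M UMIs in control 2 and 89.8% of 323 in the LPS library. Not thinned and without Ube2c and Nusap1, a split chosen after seeing these values, 3 of 316 and 2 of 693 held at least 2, against 31 and 68 with them. The median depth of these barcodes was 858 and 582 UMIs without haemoglobin, against 3546 and 4620 in T-lineage cells. For the other 21 G2/M genes these barcodes held 45 and 33 UMIs in all.

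Most T-lineage cells carried transcripts of immature T cells, and these cells held 3663 of 3675, 14168 of 14269 and 703 of 738 G2/M UMIs. At least 2 UMIs of Rag1, Rag2, Dntt, Ptcra and Arpp21, genes of receptor rearrangement and early T-cell development, were found in 134 of 158 cells in control 1 (84.8%), 872 of 944 in control 2 (92.4%) and 45 of 71 in the LPS library (63.4%). Cells with 0 such UMIs numbered 23, 54 and 22. Whether the immature cells were resident in the intima or carried over from the thymus was not tested. The G2/M genes summed to 4484, 3308 and 2879 CPM in the immature cells and to 107, 286 and 228 in the others. S-phase genes summed to 2419, 1961 and 651 in the immature cells and to 233, 713 and 319 in the others. The median depth of the immature cells was 3114, 3490 and 3941 UMIs, against 4564, 4338 and 5537 in the others. Medians do not describe the cells that held most G2/M UMIs. The immature cell with the most G2/M UMIs in each library had 17319, 25436 and 19281 UMIs.

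In the same test on these 6 sums, 24 of 27 tested members were higher in the immature cells and 0 lower, where 6.75% of the 4370 genes tested were higher and 7.46% lower. All 15 tested G2/M genes, all 3 broad genes and 6 of 9 S-phase genes passed, and without the filter 34 of 39 did. Mki67 was at 450.5, 335 and 557 CPM in the immature cells and 0, 14.9 and 15.2 in the others, a difference of 5.04 (log2, SE 0.401, adjusted p = 1.66e-09). Ube2c was at 431, 356 and 192.5 against 0, 7.43 and 0, a difference of 6.27 (SE 0.511, adjusted p = 2.29e-09). Pclaf was at 616, 418 and 73.7 against 0, 55.7 and 0, a difference of 3.69 (SE 0.432, adjusted p = 8.95e-07). Mcm2, Mcm3 and Mcm4 did not pass, with differences of 0.90, 0.96 and 0.70. Cenpa, at 188.5, 193 and 197 against 53.7, 66.8 and 129, had the smallest difference that passed among G2/M genes, 1.16 (SE 0.303, adjusted p = 0.00892). Leaving out a library left 19 to 33 calls.

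**Figure D4:**
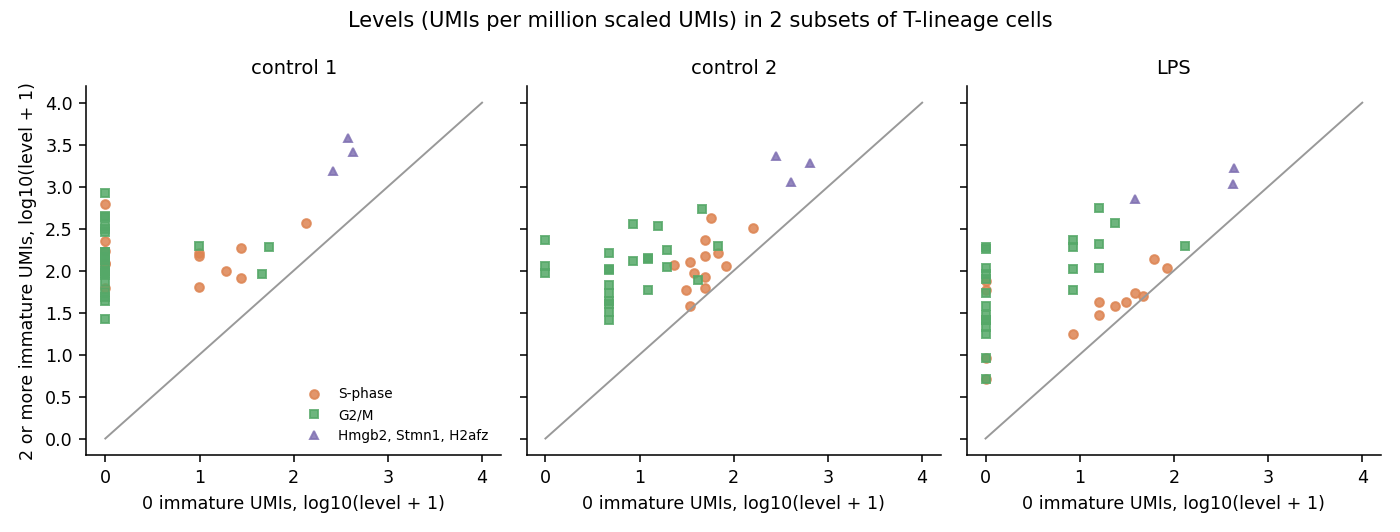
Each point is 1 gene, with its level in T-lineage cells with 0 immature UMIs (x) and with at least 2 (y), as log10 of CPM plus 1, in 1 panel per library. Most points lie above the grey line of equal levels, and G2/M genes (squares) lie farthest from it.

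The S-phase sum of T-lineage cells, 2145 and 1861 CPM in the controls, was 511 with LPS, but the test with 2 libraries against 1 called no member. Of the 39 members, all tested, 0 passed at an adjusted p under 0.05 in edgeR's test with 1 residual degree of freedom, as did 0 of all 9534 genes (0.0% higher and 0.0% lower). At an unadjusted p under 0.05 there were 20 members and 1170 genes. DESeq2 called Rrm2 and Pclaf lower, and edgeR without the filter on low counts called these and other members lower. The median log2 difference of the members was -1.43 with DESeq2 and -1.51 without the filter. For all genes tested it was -0.05 and -0.46. Each of these fits takes the spread from the 2 controls alone and lends it to the LPS library.

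The LPS level of T-lineage cells lay under both controls for 36 of 39 members, where it did so for 37.9% of all genes tested. These were all 13 S-phase genes, 20 of 23 G2/M genes and all 3 broad genes. Against control 1 the log2 ratio of S-phase genes ran from -3.90 to -0.43 (median -1.86), and against control 2 from -3.87 to -0.36 (median -1.79). For G2/M genes the medians were -1.26 and -0.92, and the highest ratios were those of Cenpe at 0.20 and 0.58. Mki67 was between its controls, and Cenpa was at 171 CPM in control 1 and in the LPS library. Asf1b, at 55.7 and 55.3 in the controls, was at 2.52 with LPS, from 1 UMI, and Pbk likewise. Both sets of ratios use the same LPS library, so they are not independent readings of LPS.

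**Figure D5:**
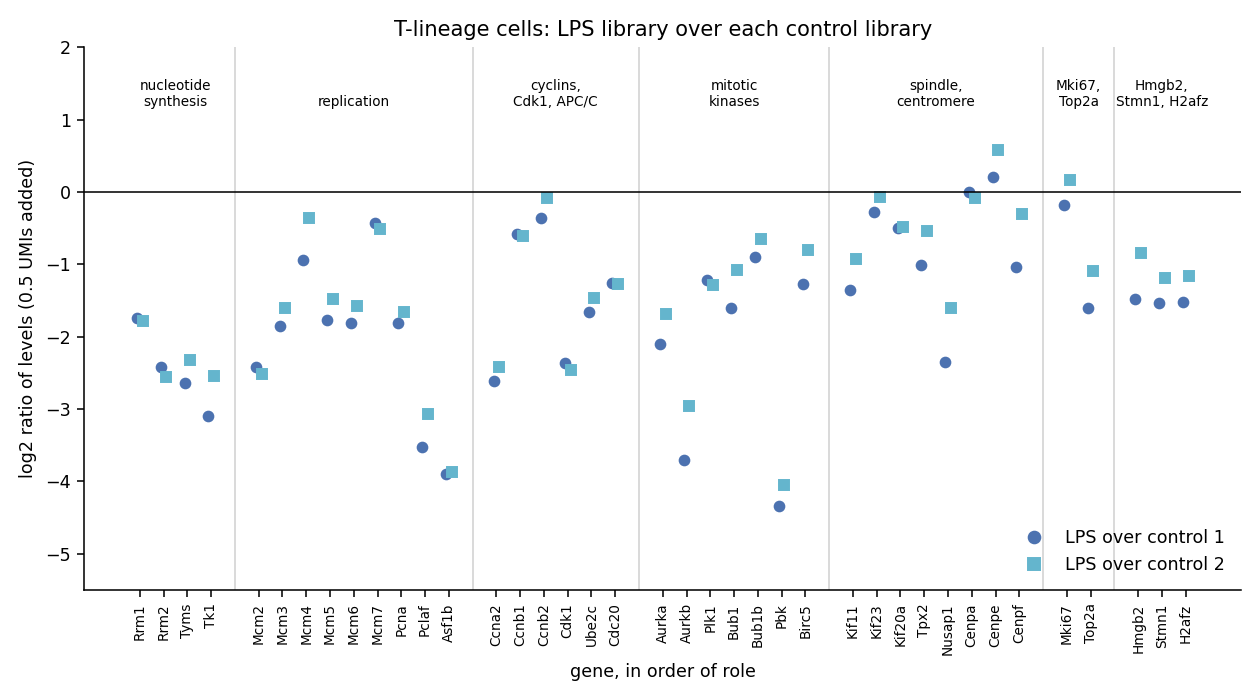
Log2 ratio of the LPS level to that of control 1 (circles) and control 2 (squares) for each of the 39 genes in T-lineage cells (x, in order of role), with 0.5 UMIs added. All 13 S-phase genes lie under 0 against both controls, and Mki67, Cenpa and Cenpe lie near or above it.

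The ratio of S-phase to G2/M UMIs in T-lineage cells was 0.545 and 0.604 in the controls and 0.275 with LPS. Immature cells alone gave 0.539, 0.593 and 0.226. Ungated barcodes, whose lineage was not set, gave 0.872, 0.672 and 0.921. Immature cells were a smaller share of the LPS T-lineage cells, as given above, and within them 32 of 39 members lay under both controls and 5 above, where 36.3% of genes lay under. The 13 S-phase genes were all under both controls there, while Mki67 was at 557 CPM against 450.5 and 335, and Cenpe at 229 against 143 and 104. edgeR again called no member in immature cells, where the median log2 difference was -1.05 for the members and -0.08 for all genes tested.

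Few cells stand behind the LPS values. Of the 738 G2/M UMIs of LPS T-lineage cells, 5 cells held 72.8%, against 47.9% and 14.4% in the controls. These shares are not alike in scale, since 5 cells are a larger part of 71 cells than of 158 or 944. Rrm2 came from 14 UMIs in 4 cells and Pclaf from 18 UMIs in 5 cells. At least 10 G2/M UMIs were in 18 of 158 cells in control 1 (11.4%, exact 95% interval 6.89 to 17.4), 99 of 944 in control 2 (10.5%, 8.61 to 12.6) and 9 of 71 with LPS (12.7%, 5.96 to 22.7), counted without thinning. At least 10 S-phase UMIs were in 20 cells (12.7%, 7.91 to 18.9), 90 cells (9.53%, 7.74 to 11.6) and 3 cells (4.23%, 0.88 to 11.9). Of the cells high in G2/M UMIs, 17 of 18, 85 of 99 and 3 of 9 were also high in S-phase UMIs. The intervals overlap between the libraries for both the S-phase and the G2/M shares. They cover only the counting of cells within each library, so their overlap is no test of LPS.

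In phagocytes with LPS, 17 members were tested, of which 4 were lower and 0 higher, where 3.11% of the 3510 genes tested were lower and 4.25% higher. Ube2c, at 16.3 and 230 CPM in the controls and 2.57 with LPS, was lower by 5.55 (log2, SE 0.973, adjusted p = 8.52e-07). Ccnb2 (16.3, 217 and 16.7), Cenpa (8.16, 223 and 20.5) and Stmn1 (97.9, 478 and 52.6) were lower by 2.94, 2.63 and 2.57. Ccnb2 and Cenpa were not under control 1, and the single cell of control 2 held 30 of 35 Ccnb2 UMIs, 26 of 36 Cenpa UMIs and 32 of 37 Ube2c UMIs. Without the top phagocyte of each library edgeR called no member, but those cells were picked for their G2/M UMIs. Loss of G2/M calls thus follows from the choice, and only 5 members were still tested, against 17 with all cells. With all cells DESeq2 called no member. Of the 4 tested S-phase genes (Mcm3, Mcm7, Pcna and Pclaf) 0 passed, with log2 differences of 1.06, 1.54, 0.06 and 0.20. In fibroblasts 3 members were tested, Pcna, Hmgb2 and H2afz, and 0 passed at differences of 1.26, 1.24 and -0.21 with 0 at an unadjusted p under 0.05, where 8.83% of 3761 genes were higher and 6.65% lower; DESeq2 called 0 too. Endothelial cells of control 2, 16 in number, were under the minimum of 20 cells for the test. Under other settings that held enough cells, a looser gate called 2 of 6 tested members, Hmgb2 and H2afz, 1 higher and 1 lower, while a mitochondrial limit of 25% called 0 of 3 and clusters 0 of 7 by edgeR, each with 2 at an unadjusted p under 0.05.

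The difference between T-lineage cells and phagocytes in the LPS term passed for 2 of the 39 members, Rrm2 and Pclaf, in a fit to all 9 sums with library as a block, class by LPS terms and 2 residual degrees of freedom. The LPS arm is 1 library, so this fit compares that library with the controls. Of 10177 genes tested 0.138% were lower in T-lineage cells relative to phagocytes and 0.167% higher. The difference was -6.30 for Rrm2 (log2, SE 1.32, adjusted p = 0.0107) and -3.82 for Pclaf (SE 0.898, adjusted p = 0.0321), where the median of all genes was -0.31. With DESeq2's size factors in place of TMM that median was -0.08 and Rrm2 alone was called. In LPS phagocytes 31 of 33 Rrm2 UMIs and 54 of 69 Pclaf UMIs were in 1 cell, and without the top phagocytes 0 members were called in edgeR's test, with 11 at an unadjusted p under 0.05 and differences of -2.26 and -3.60. DESeq2 called 0 with all cells.

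Other genes of the cycle, from 5 lists chosen with earlier results of these libraries known, were tested in the same fit. For mitosis 7 of 29 tested genes were higher in T-lineage cells than in phagocytes and 25 of 29 higher than in wall cells, with 0 lower, where 9.63% and 14.9% of all genes tested were higher. Kif4, a chromokinesin, was higher than in phagocytes by 4.60 (log2, SE 1.10, adjusted p = 0.0149), at 62.1, 31.1 and 27.7 CPM against 0, 6.21 and 0. Knl1, a kinetochore scaffold, was higher by 3.32 and Smc4, a condensin subunit, by 2.37. For S phase 2 of 14 were higher than in phagocytes, Dut (dUTPase) by 2.32 and Prim1 (primase) by 1.73, and 12 of 14 higher than in wall cells. The share against phagocytes, 2 of 14, is near the 9.63% of all genes tested. Dut was at 548, 412 and 78.1 CPM in T-lineage cells, so that its LPS level too was under both controls.

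The G1 list differed in direction within itself. Ccnd3, cyclin D3, was at 686, 1022 and 338 CPM in T-lineage cells against 81.6, 24.8 and 144 in phagocytes, higher by 2.51 (log2, SE 0.618, adjusted p = 0.0129). Ccnd1 and Ccnd2, the other D cyclins, were lower by 3.78 and 1.56. Ccnd1 was at 6.42, 9.08 and 5.04 in T-lineage cells, 106, 130 and 47.5 in phagocytes and 102, 60.2 and 133 in wall cells, with no overlap between T-lineage cells and the rest. Of 7 tested E2F and MuvB genes 1 passed against phagocytes, E2f2, near the share of all genes tested (9.63% higher and 12.3% lower). E2f2 was higher by 3.48, at 92.1, 119.7 and 40.3 CPM against 0, 6.21 and 5.13.

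Inhibitors and brakes of the cycle split as well, with 6 of 11 tested higher in T-lineage cells than in phagocytes and 1 lower, where 9.63% of all genes tested were higher and 12.3% lower. Trp53inp1, a p53-induced stress gene, was higher by 4.12, and Cdkn2d and Cdkn2c, which encode inhibitors of Cdk4 and Cdk6, by 2.47 and 2.34. Cdkn1a, which encodes the inhibitor p21, was lower by 2.73 (log2, SE 0.462, adjusted p = 0.00138). It was at 3.21, 9.51 and 32.8 CPM in T-lineage cells, 24.5, 37.2 and 255 in phagocytes and 91.6, 60.2 and 598 in wall cells, with the LPS library highest in each class.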

How the data were processed

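The authors deposited UMI counts, not normalized, made with Cell Ranger 3.1 on mm10, per the submitters' processing notes; how barcodes were selected is not stated in these notes. The 39 members, the classes and the lists were chosen with earlier results of these data known. Barcodes with at least 500 UMIs, 300 genes and at most 15% mitochondrial UMIs were gated by 12 markers per class. Haemoglobin-rich (at least 50%) and Gm42418-rich (at least 40%) barcodes were set apart. UMIs were summed per library and class. Sums with at least 20 cells were tested with edgeR 4.0.16 (TMM, filterByExpr, quasi-likelihood, Benjamini-Hochberg at 0.05; library as block between classes), and gate markers were left out of the counts of genes tested. The code was tested on simulated counts. Classes pair by library because they come from the same pool. DESeq2 1.42.0, other gates, filters and thinning, Leiden clusters (scanpy 1.11.5) and left-out libraries were alternatives. In each role the 3 members with the highest mean T-lineage level are given by library, with members called with LPS; list genes named are up to 3 each way with the largest difference that passed at a mean of at least 20 CPM. Depth ranges from 4940996 to 21864072 UMIs per library.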

Additional observations from a re-analysis of the deposited data

Results flagged for a closer look

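A test of the difference between classes in the LPS term, with 1 LPS library, called Rrm2 and Pclaf among the members. It also called genes outside the members, such as the S-phase genes Hells and Dut, at log2 differences of -8.15 and -4.36. For Rrm2 the log2 difference with LPS in T-lineage cells minus that in phagocytes was -6.30, and for Pclaf -3.82, in edgeR's fit with class by LPS terms. In T-lineage cells Rrm2 was at 196 and 215 CPM in the controls and 35.3 with LPS, and in phagocytes at 0 and 6.21 in the controls and 42.3 with LPS. An alternative chosen after seeing the data left out the phagocyte with the most G2/M UMIs in each library. The differences of Rrm2 and Pclaf were then -2.26 and -3.60, and neither passed.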

How the results depend on the processing

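All 33 tested members stayed higher in T-lineage than in wall cells under DESeq2, its size factors and no replicate block. Counts of members called moved by over 1.5 times in the following. For T-lineage against phagocyte cells, with 10 called, there were 20 without the filter on low counts, 4 with a looser gate, 4 with no replicate block, 21 without the top phagocytes and 2 to 14 without 1 library. For phagocyte against wall cells, with 20 called, there were 32 without the filter, 11 with no replicate block, 6 without the top phagocytes and 12 to 24 without 1 library. For LPS in T-lineage cells, with 0 called, DESeq2 gave 2, no filter 18 and cells without an immature UMI 1. For LPS in phagocytes, with 4 called, DESeq2 gave 0, no filter 7, a looser gate 2 and no top phagocytes 0. Cenpa turned to 0.79 without control 2, and to -3.42 without control 1. A looser gate called 1 member in fibroblasts. For the difference in LPS response, with 2 called, DESeq2's size factors left 1, DESeq2 0 and no top phagocytes 0. The thinned share of T-lineage minus phagocyte cells, 7.38 points, was 11.6 with a stricter gate, and that of T-lineage minus wall cells, 9.41, was 12.3 at 1000 UMIs and 22.0 without thinning. The cause of these moves was not tested beyond the cells and genes each alternative leaves out. Not run: stricter-gate and cluster fits in which a class held under 20 cells, LPS in endothelial cells in the main gate (a looser gate called 2 members), and LPS tests without 1 library, which leave no residual degrees of freedom. The 24 to 92 phagocytes and 71 LPS T-lineage cells limit what the sums can show.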
